A study of Mus musculus with 6 samples.

Results

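The guanylate-binding protein genes Gbp2, Gbp3, Gbp4, Gbp5, Gbp6, Gbp7, Gbp8 and Gbp9 are described here in RNA-seq data of transplanted WT and Hemgn-/- bone marrow cells. The 8 genes were taken by symbol, through their Ensembl identifiers, from a table of 24965 genes. WT and Hemgn-/- donors carried CD45.2, and 20000000 of their bone marrow cells were injected into CD45.1+ recipients that had received 9 Gy of irradiation, split into 4.5 Gy and 4.5 Gy. Donor cells were sorted 6 h after bone marrow transplantation (BMT), with 3 WT and 3 Hemgn-/- libraries, so that irradiation and transplantation were common to both groups. Hemgn-/- donors carry an edited, frameshifted Hemgn allele with a premature stop codon in every cell, and the study's methods give adult C57BL/6 mice of both sexes for its experiments. The sample labels describe the sorted cells as donor CD45.2+Lin-Sca-1+ cells, whereas the design text adds c-Kit, and the sources also differ on the route of injection and the library kit. No source says whether a library came from 1 recipient or several, so p-values measure the spread between these libraries only.

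Guanylate-binding proteins (GBPs) are large GTPases related to dynamins, and they are among the genes most strongly induced by interferon-gamma (IFN-gamma). They gather on the vacuoles of intracellular parasites and bacteria and on cytosolic bacteria, break these compartments open, and promote inflammasome signaling. Their transcription after IFN-gamma runs through GAS elements and through ISRE elements, which IRF1 binds.

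Levels are in FPKM, fragments per kilobase of gene scaled by the total fragments of the library, and so can be compared roughly between genes. The length used is that of all annotated exons of a gene, whichever of its transcripts are expressed. Library depth was recovered from FPKM steps and gene lengths, and was 23668005 to 28897136 fragments. Hemgn itself, the edited gene, was at 5.64, 2.96 and 4.68 FPKM in WT libraries and at 0.755, 0.913 and 1.60 FPKM in Hemgn-/- libraries. The frameshift leaves the gene in place, so its FPKM is a level of the transcript and not a direct check of the edit. The log2 fold change of Hemgn was -1.37 with an SE of 0.23 (adjusted p = 0.0114 in limma), and its adjusted p was above 0.05 in 2 of 15 alternatives, reaching 0.0613.

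The labelled cell type was checked against its markers before any result. Kit, the receptor that defines LSK cells, was at 5.50 to 7.24 FPKM over the 6 libraries, and the summed level of the 10 markers of hematopoietic stem and progenitor cells (HSPCs) was 35.9 to 51.7 FPKM. Ly6a, which encodes Sca-1, was at 8.27 to 17.3 FPKM. Some mature markers were far above these levels. Ngp, a neutrophil granule protein, was at 26488 FPKM or more in every library. Cd79b, a chain of the B cell receptor complex, was at 479 FPKM or more, though other B cell markers were lower, down to Pax5 at 3.98 to 6.94 FPKM. The libraries therefore go against the HSPC label, and the cells are called sorted donor cells here. In such a mixture, fewer cells of a type and less RNA per cell cannot be told apart.

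The regulatory sequences come first because the study concerns IFN-gamma signaling. RefSeq entries gave upstream sequence for 4 of the 8 genes, Gbp2, Gbp3, Gbp5 and Gbp7. The entries searched had 250 bases before each annotated start in GRCm38.p6, and letters matching GAS (TTCNNNGAA, the same on both strands) or ISRE (GAAA, any 2 bases, GAAA, on either strand) were marked. The 4 sequences, all on the + strand of chromosome 3, are shown because they place these letters in the genes measured below. Capitals mark the matches, and each sequence ends before the first GENCODE exon that reaches into its window or, for Gbp2, at the end of the last match. The window of Gbp5 lies inside its gene model, since another transcript of Gbp5 starts farther upstream.
Gbp2, chr3:142620413-142620613: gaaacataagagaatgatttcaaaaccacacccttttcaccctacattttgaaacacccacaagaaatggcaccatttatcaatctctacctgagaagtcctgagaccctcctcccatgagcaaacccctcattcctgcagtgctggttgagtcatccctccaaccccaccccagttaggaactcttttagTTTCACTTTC
Gbp3, chr3:142559794-142560025: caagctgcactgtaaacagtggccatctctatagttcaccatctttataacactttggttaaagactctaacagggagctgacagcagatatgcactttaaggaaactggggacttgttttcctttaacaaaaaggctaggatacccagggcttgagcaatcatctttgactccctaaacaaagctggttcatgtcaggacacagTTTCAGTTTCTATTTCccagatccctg
Gbp5, chr3:142496684-142496899: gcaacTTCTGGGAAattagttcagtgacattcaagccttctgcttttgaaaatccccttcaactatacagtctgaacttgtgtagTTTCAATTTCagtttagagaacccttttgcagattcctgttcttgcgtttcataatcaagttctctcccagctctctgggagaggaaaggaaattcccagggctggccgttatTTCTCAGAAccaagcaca
Gbp7, chr3:142530086-142530335: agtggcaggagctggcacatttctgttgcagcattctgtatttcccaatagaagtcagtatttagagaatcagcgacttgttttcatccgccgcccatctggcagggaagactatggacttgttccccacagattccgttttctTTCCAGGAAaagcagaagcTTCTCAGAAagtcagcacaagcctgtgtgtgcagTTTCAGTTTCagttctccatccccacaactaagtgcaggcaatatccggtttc

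Each of the 4 windows held an ISRE match, read on the minus strand. It lay at -59 to -50 from the RefSeq start in Gbp2, at -165 to -156 in Gbp5 and at -53 to -44 in Gbp7. In Gbp2 those bases fall inside the first exon of 1 GENCODE transcript, which starts upstream of the RefSeq start. Gbp3 had a pair of overlapping matches, at -45 to -36 and at -39 to -30, before the first of its 2 annotated starts. No match was in the window before the other. ISRE letters were present in 2.98% of 32851 RefSeq windows of the same length.

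GAS matches were found before Gbp5, starting at -245 and -52, and before Gbp7, starting at -106 and -87. The windows of Gbp2 and Gbp3 held no GAS match in these letters. GAS letters were present in 7.02% of all windows, and 0.332% held both kinds. A match is a description of the sequence and not a measured binding site.

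The genes lie in 2 clusters (GRCm38). Gbp2, Gbp3, Gbp5 and Gbp7 are on the + strand of chromosome 3 between 142493978 and 142638008, and Gbp4, Gbp6, Gbp8 and Gbp9 are on the - strand of chromosome 5 between 105014150 and 105293698. All 8 are annotated as protein-coding. Coding sequences within the chromosome 5 cluster were 90.2% to 92.9% identical. The nearest pair of the chromosome 3 members was Gbp3 and Gbp7 at 78.6%, while Gbp2 and Gbp5 shared 72.1%.

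**Figure D1:**
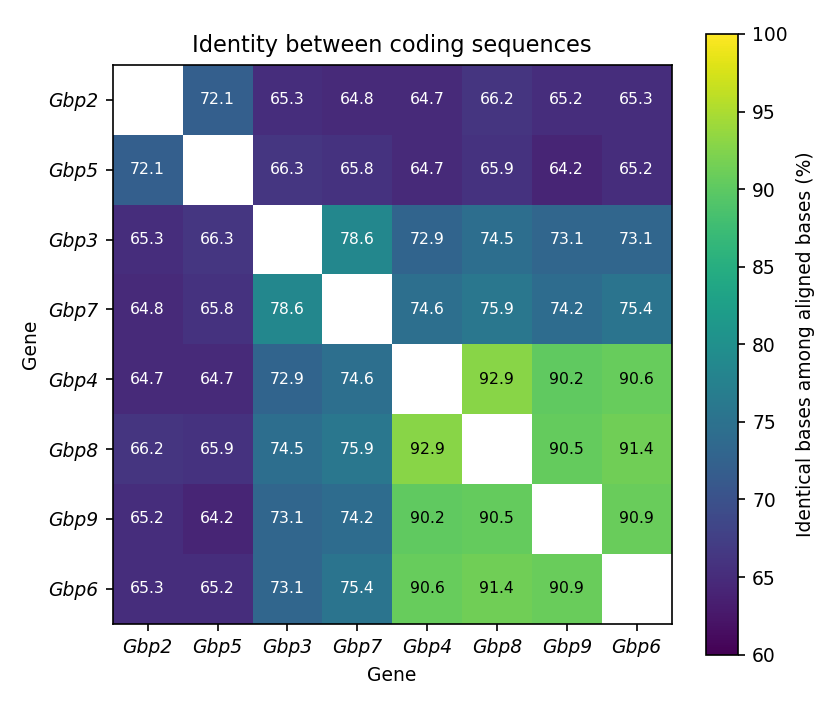
Share of identical bases among aligned bases (%) between the longest coding sequences of the 8 Gbp genes, from GENCODE M21. Gbp4, Gbp8, Gbp9 and Gbp6 form a block at 90.2% or more, and the chromosome 3 genes are at 78.6% or less to every other member.

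Likeness between copies limits how reads can be assigned. Of the 100-base stretches in Gbp6 transcripts, 64.5% occur in another gene, Gbp10 and the overlapping model Gm43302 among them, so its level is uncertain. The share was 10.0% for Gbp7, whose exons overlap the model Gm43802, and 4.42% for Gbp8. In the other members it was at most 1.65%. Whether the counting used strand is not given in the sources used here, so overlapping models cannot be separated. The annotated models of Gbp4, Gbp8 and Gbp9 overlap at their starts.

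Most of the family was higher in Hemgn-/- than in WT cells. Of the 8 genes, all of which passed the filter of FPKM above 1 in at least 1 library, 5 rose with an adjusted p under 0.05 (Gbp2, Gbp3, Gbp4, Gbp7 and Gbp9), and none fell. Among all 13739 genes tested, 4.37% rose by the same test and 2.09% fell. In 6 of 8 genes every Hemgn-/- library was above every WT library, against 19.2% of all genes tested. By the thresholds of the study's methods, an unadjusted p under 0.05 and at least 1.5-fold, 4 of 8 genes were higher, with a background of 4.1%. Here the fold was taken from log2(FPKM + 1), which shrinks it for low genes, in the background too. Gbp8, with means 1.65-fold apart, fell short on this scale. With a pseudocount of 0.1, 5 genes passed, and the share of all genes passing was not computed for that setting. The median log2 fold change of the 8 genes was 0.63, beside 0.087 for all genes tested.

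The split of calls over all genes depended on scaling. Of the genes called, 67.6% were higher in Hemgn-/- with the deposited values, 46.8% after median-ratio scaling, 51.3% after quantile normalization and 81.7% when libraries were rescaled to the same FPKM total. The 5 genes rose under each of these scalings too, with positive log2 fold changes for the other 3.

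Gbp2, a member of the chromosome 3 cluster that is recruited to Toxoplasma vacuoles, had the highest log2 fold change of the 8 genes on the log2(FPKM + 1) scale. Its level was 30.8, 27.9 and 25.8 FPKM in WT libraries and 59.4, 63.0 and 61.7 FPKM in Hemgn-/- libraries. The groups did not overlap, and the lowest Hemgn-/- library was far above the highest WT library. The mean rose from 28.2 ± 2.54 to 61.4 ± 1.81 FPKM (SD, n = 3 each), 2.18-fold, and the log2 fold change was 1.10 with an SE of 0.086 (adjusted p = 0.000263 in limma). Of all genes tested, 0.779% had a log2 fold change at or above it.

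Gbp7 was as abundant as Gbp2 in WT cells and lower than Gbp2 in Hemgn-/- cells. It stood at 30.04, 26.7 and 28.2 FPKM in WT and at 50.6, 43.2 and 46.5 FPKM in Hemgn-/- libraries, again with no overlap. The mean of 28.3 ± 1.67 became 46.8 ± 3.68 FPKM (SD, n = 3 each), 1.65-fold, and the log2 fold change was 0.70 with an SE of 0.088 (adjusted p = 0.00307 in limma).

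Gbp3, the nearest relative of Gbp7 in coding sequence, was at 16.2, 12.7 and 12.6 FPKM in WT and at 20.6, 24.0 and 23.9 FPKM in Hemgn-/- libraries. WT replicate 1 was the highest WT library and Hemgn-/- replicate 1 the lowest of its group, but the groups stayed apart. The fold was 1.65 and the log2 fold change 0.69 with an SE of 0.12 (adjusted p = 0.0125 in limma). This call was lost without Hemgn-/- replicate 2 (adjusted p = 0.0510 in limma) and without Hemgn-/- replicate 3 (adjusted p = 0.0644 in limma).

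Gbp5, which like Gbp2 ends in a motif for attachment of a lipid anchor and is linked to inflammasome assembly, was the lowest of the chromosome 3 members. It was at 0.439, 0.465 and 0.924 FPKM in WT and at 0.802, 2.37 and 1.18 FPKM in Hemgn-/- libraries, so the groups overlapped. The gene passed the filter through Hemgn-/- libraries alone. The means differed 2.38-fold, more than those of Gbp2, and with voom the log2 fold changes were 1.15 for Gbp5 and 1.13 for Gbp2. On the log2(FPKM + 1) scale the value of 0.57 had a 95% confidence interval from -0.054 to 1.19 (adjusted p = 0.277 in limma), which includes both no change and a change like that of Gbp2. Without Hemgn-/- replicate 2 the value was 0.31.

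**Figure D2:**
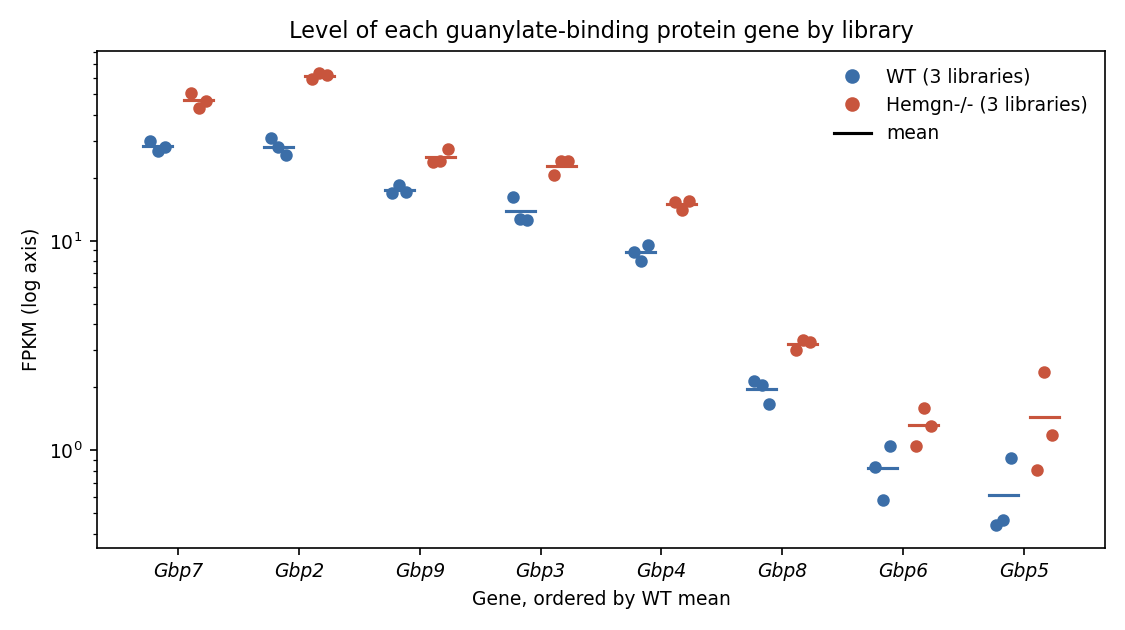
Level of each Gbp gene in FPKM on a log axis, with 1 point for each of 3 WT (blue) and 3 Hemgn-/- (red) libraries and a line at each group's mean. The groups are apart in Gbp7, Gbp2, Gbp9, Gbp3, Gbp4 and Gbp8 and overlap in Gbp6 and Gbp5.

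On chromosome 5, Gbp9 was the most abundant member in both groups. Its values were 16.9, 18.4 and 17.1 FPKM in WT and 23.8, 24.0 and 27.5 FPKM in Hemgn-/- libraries, without overlap. The rise was 1.43-fold, from 17.5 ± 0.832 to 25.1 ± 2.05 FPKM (SD, n = 3 each), with a log2 fold change of 0.50 and an SE of 0.092 (adjusted p = 0.0163 in limma). Leaving out Hemgn-/- replicate 3, WT replicate 1 or WT replicate 3 took the adjusted p in limma to 0.0776, 0.0636 and 0.0588.

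Gbp4 was at 8.85, 8.02 and 9.56 FPKM in WT and at 15.4, 14.0 and 15.5 FPKM in Hemgn-/- libraries. The groups were apart, and replicates within each group lay close together. The log2 fold change was 0.70 with an SE of 0.10 (1.70-fold, adjusted p = 0.00592 in limma).

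Gbp8 had 2.15, 2.05 and 1.66 FPKM in WT and 3.01, 3.37 and 3.30 FPKM in Hemgn-/- libraries. No libraries overlapped, and the means differed 1.65-fold, the same size as for Gbp7. The test across all genes gave a log2 fold change of 0.52 with a 95% confidence interval from 0.20 to 0.84 (adjusted p = 0.0680 in limma), so Gbp8 was not called. It was called in 1 of 15 alternatives. It had 158 to 328 fragments per library, against 1797 to 4483 for Gbp2, and the pseudocount of 1 FPKM understates the change of a gene this low. With a pseudocount of 0.1 the log2 fold change was 0.70, but Gbp8 was still not called (adjusted p = 0.0730 in limma).

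Gbp6, the member that reads distinguish least, was at 0.830, 0.578 and 1.05 FPKM in WT and at 1.05, 1.59 and 1.31 FPKM in Hemgn-/- libraries. WT replicate 3 was above Hemgn-/- replicate 1. Its log2 fold change was 0.35 with a 95% confidence interval from -0.11 to 0.81 (adjusted p = 0.368 in limma).

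**Figure D3:**
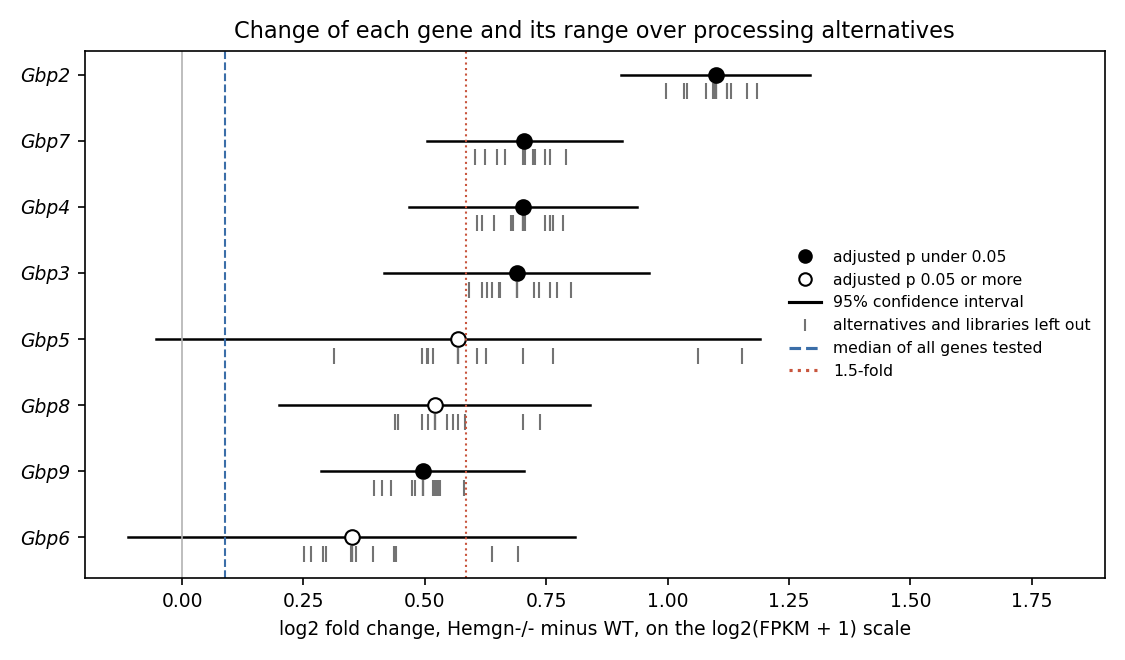
log2 fold change of each Gbp gene, Hemgn-/- minus WT, on the log2(FPKM + 1) scale, with its 95% confidence interval and a filled point where the adjusted p was under 0.05. Gray ticks are the 15 alternatives, some on another scale, and they lie above 0 for every gene, from 0.25 at the lowest for Gbp6 to 1.18 at the highest for Gbp2.

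The order of the genes by mean FPKM differed between the groups only for pairs whose ranges overlapped in WT libraries. In WT libraries the order by mean FPKM was Gbp7, Gbp2, Gbp9, Gbp3, Gbp4, Gbp8, Gbp6 and Gbp5, and only the neighbours Gbp7 and Gbp2, and Gbp6 and Gbp5, overlapped. In Hemgn-/- libraries Gbp2 came first and was clear of Gbp7, followed by Gbp9 and Gbp3, which overlapped, and then by Gbp4, Gbp8, Gbp5 and Gbp6, of which the last pair overlapped.

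Summed over the 8 genes, the level was 106, 96.9 and 96.8 FPKM in WT and 175, 176 and 181 FPKM in Hemgn-/- libraries, a 1.77-fold difference of the means. The chromosome 3 sum was 1.87-fold higher and the chromosome 5 sum 1.53-fold higher. Gbp2 made up 28.1% ± 1.31 of the sum in WT and 34.7% ± 1.06 in Hemgn-/- libraries (SD, n = 3 each), with no overlap. The share of Gbp9 was 17.5% ± 1.56 in WT and 14.2% ± 0.881 in Hemgn-/- libraries (SD, n = 3 each), also with no overlap. Shares of the other 6 genes overlapped between groups.

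Ratios taken within a library do not depend on its scaling. The log2 ratio of Gbp2 to Gbp7 was 0.038, 0.064 and -0.13 in WT and 0.23, 0.54 and 0.41 in Hemgn-/- libraries, and the mean was higher by 0.40 in Hemgn-/- cells. For Gbp2 over Gbp3, Gbp4, Gbp8 and Gbp9 this difference was 0.36 to 0.61, without overlap. Against Gbp5 and Gbp6 the ratios overlapped.

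**Figure D4:**
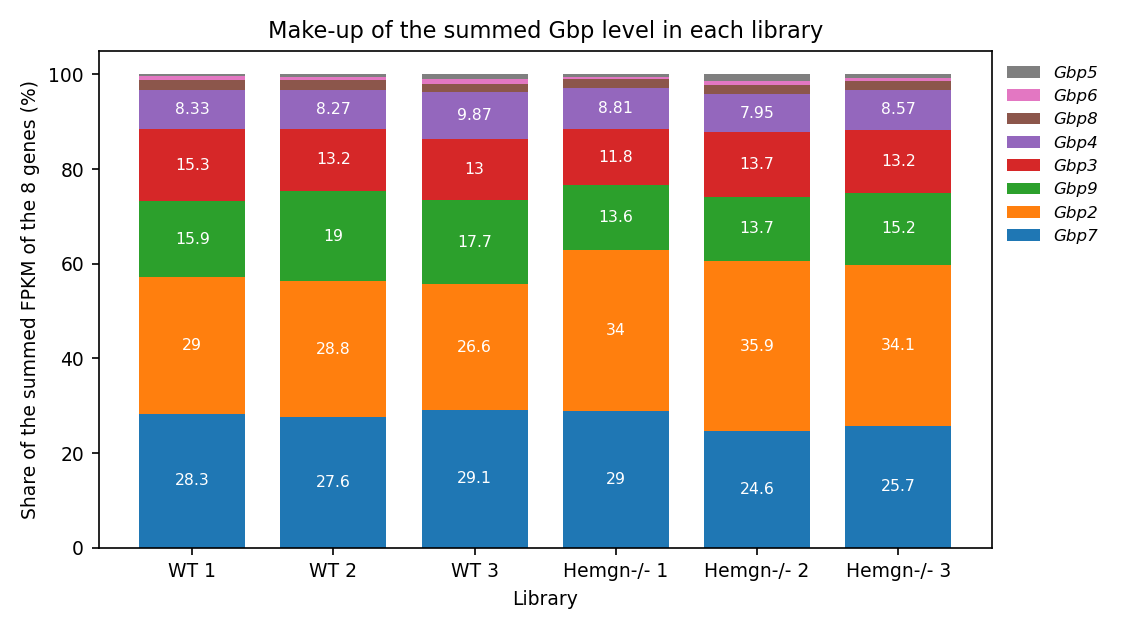
Share (%) of each Gbp gene in the summed FPKM of the 8 genes, with 1 stacked bar per library. The orange Gbp2 segment is 26.6% to 29.0% in WT and 34.0% to 35.9% in Hemgn-/- libraries, while the green Gbp9 segment is smaller in Hemgn-/- libraries.

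The family's remaining genes in the table showed no call. Gbp10 was at 0.273, 0.484 and 1.19 FPKM in WT and at 0.753, 2.38 and 1.64 FPKM in Hemgn-/- libraries (adjusted p = 0.272 in limma), and it shares 73.5% of its 100-base stretches with other genes. Gbp11, annotated as a polymorphic pseudogene, had means 0.737 times as high in Hemgn-/- as in WT (adjusted p = 0.621 in limma). Gbp2b, the neighbor of Gbp2 on chromosome 3, had 49 fragments at most in any library, was at 0 in 2 WT libraries and was not tested.

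Position was examined through protein-coding genes within 500 kb of either cluster. Of 10 in the table, 8 were tested, and 0 were called by limma or by limma's voom on recovered fragments. At an unadjusted p under 0.05 the count was also 0 in both. Of all genes tested by limma, 4.37% rose and 2.09% fell with an adjusted p under 0.05, so 0 of 8 is near that share. The log2 fold changes of the 8 flanking genes ran from -0.032 to 0.37, with a median of 0.088.

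The machinery of the IFN-gamma response and the partners of GBPs were taken as 10 lists of related genes, with 62 of 63 genes tested. With an adjusted p under 0.05, 17 rose and 1 fell, beside 4.37% and 2.09% of all genes tested.

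Of the ligand, receptor and kinase genes, 1 of 5 rose. It was Ifngr2, the signaling chain of the receptor, at 33.2, 29.6 and 30.9 FPKM in WT and 40.3, 43.7 and 45.1 FPKM in Hemgn-/- libraries (log2 fold change 0.45, SE 0.083, adjusted p = 0.0158 in limma). Ifngr1, the ligand-binding chain, gave an adjusted p of 0.0757 in limma with a log2 fold change of 0.26. Ifng, the ligand, gave 0.38 and an adjusted p of 0.193 in limma. The log2 fold changes of the receptor-associated kinases Jak1 and Jak2 were 0.19 and -0.12, neither called.

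Among 6 transcription factor genes, 2 rose. Irf1 went from 52.1, 52.0 and 42.6 FPKM in WT to 76.9, 82.7 and 88.3 FPKM in Hemgn-/- libraries (1.69-fold, adjusted p = 0.00384 in limma). Irf8, a factor of myeloid and B lineages, was at 38.5 to 39.7 FPKM in WT and 64.6 to 68.1 FPKM in Hemgn-/- libraries (1.70-fold, adjusted p = 0.000657 in limma). Stat2, Irf2 and Irf9 were not called, with log2 fold changes of 0.40, 0.37 and 0.18.

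Inhibitors of the pathway rose in 3 of 7 cases. Socs3, which binds and blocks cytokine receptors and their kinases, rose 1.79-fold (adjusted p = 0.000663 in limma). Usp18, which restrains type I IFN signaling, rose 1.65-fold (adjusted p = 0.0123 in limma), and Ptpn6, the phosphatase SHP-1, rose 1.31-fold (adjusted p = 0.00737 in limma). Socs1, Ptpn2, Ptpn11 and Pias1 were not called, with log2 fold changes of 0.24, 0.22, -0.15 and 0.25. Of the 3 type I IFN receptor and kinase genes, Ifnar1 rose 1.39-fold (adjusted p = 0.0332 in limma), while Tyk2 at 0.53 and Ifnar2 at 0.095 on the log2 scale were not called.

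The immunity-related GTPases (IRGs), a second family of IFN-inducible GTPases that act with GBPs on vacuoles, had the highest share of calls of these lists. Of 10 tested, 7 rose and none fell, with a median log2 fold change of 0.53. Gm12250, which encodes Irgb10, was at 24.9, 26.5 and 24.0 FPKM in WT and at 72.4, 67.0 and 73.1 FPKM in Hemgn-/- libraries (2.82-fold, adjusted p = 2.88e-05 in limma). This was a larger fold than that of Gbp2. Iigp1 rose 2.23-fold (adjusted p = 0.00204 in limma) and Tgtp2 rose 1.86-fold (adjusted p = 0.00247 in limma).

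Of the 3 dynamin-like IFN GTPases, Mx1, an antiviral protein, rose 2.13-fold (adjusted p = 0.0112 in limma). Mx2 and Gvin1 were not called (adjusted p = 0.0844 and 0.122 in limma). Every Hemgn-/- library was above every WT library in both, as in 19.2% of all genes tested. Gvin1 passed the filter through Hemgn-/- libraries alone.

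None of 5 prenyltransferase and lipid-processing genes, whose products attach and process lipid anchors, had a call by limma. Fnta was 0.490 times as high in Hemgn-/- as in WT (adjusted p = 0.0879 in limma), and Fntb, Pggt1b, Rce1 and Icmt had log2 fold changes of 0.072, 0.35, 0.14 and 0.44. Of 10 genes for ATG8 proteins and their conjugation, a system linked to the placing of GBPs on vacuoles, 1 fell. It was Map1lc3a, at 60.1, 60.8 and 52.1 FPKM in WT and 40.2, 44.3 and 38.4 FPKM in Hemgn-/- libraries (log2 fold change -0.48, adjusted p = 0.0185 in limma).

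Downstream of GBPs, 2 of 8 inflammasome genes rose. They were Casp4, the sensor of cytosolic lipopolysaccharide, at 1.52-fold (adjusted p = 0.0190 in limma), and Il1b at 1.53-fold (adjusted p = 0.0125 in limma). Aim2, Nlrp3, Casp1, Gsdmd, Pycard and Il18 were not called, with log2 fold changes of 0.48, 0.46, 0.24, 0.24, -0.12 and 0.10. None of 5 ubiquitin ligase and adaptor genes was called by limma. Trim21 had 2.43, 0.684 and 2.93 FPKM in WT and 0.167, 0.278 and 0.298 FPKM in Hemgn-/- libraries (adjusted p = 0.0680 in limma), and the log2 fold changes of Rnf213, Sqstm1, Traf6 and Tax1bp1 were 0.31, 0.21, -0.0087 and -0.064.

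**Figure D5:**
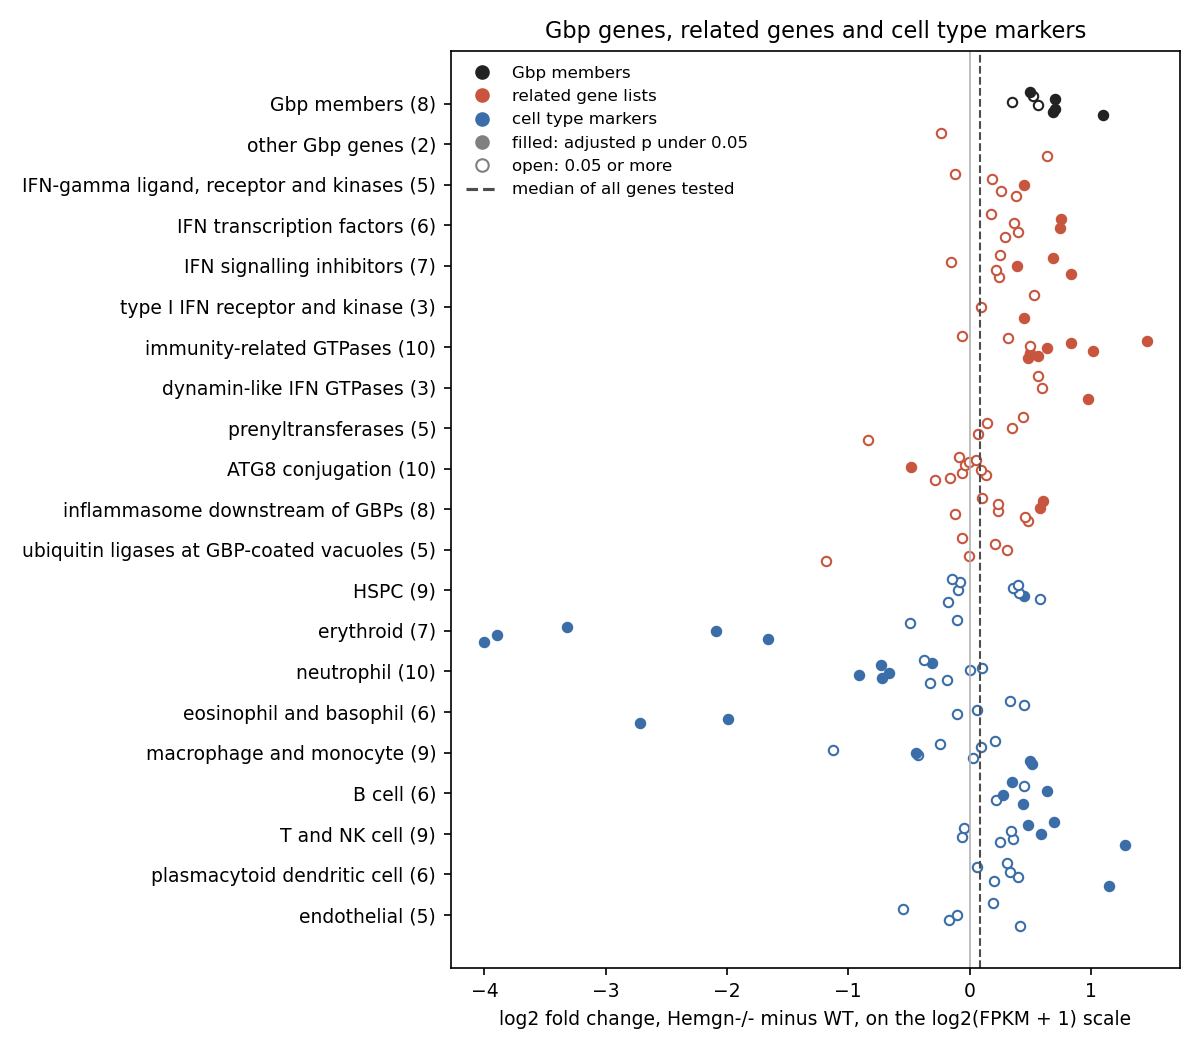
log2 fold change, Hemgn-/- minus WT, of the genes tested in each list, on the log2(FPKM + 1) scale, with Gbp genes in black, related genes in red and cell type markers in blue, filled where the adjusted p was under 0.05. IRG genes reach 1.46 and erythroid markers go down to -4.01, while the dashed line is all tested genes' median of 0.087.

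Markers of other cells also differed between the groups. Their counts stand beside 4.37% of all genes tested that rose and 2.09% that fell with an adjusted p under 0.05. Of 6 B cell markers 4 rose, with a summed level of 1152 to 1215 FPKM in WT and 1382 to 1559 FPKM in Hemgn-/- libraries. Of 9 T and NK cell markers 4 rose, from a sum of 143 to 153 FPKM to one of 173 to 203 FPKM. In the macrophage and monocyte list Adgre1 and Csf1r rose and C1qb fell, with sums of 433 to 500.5 FPKM and 368 to 456 FPKM. Of 6 plasmacytoid dendritic cell markers 1 rose, Siglech at 2.51-fold. The sums of that list overlapped, at 146 to 174 FPKM in WT and 161 to 197 FPKM in Hemgn-/- libraries.

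In other lineages some markers fell, beside 2.09% of all genes tested. The sum of 10 neutrophil markers was 75463 to 81559 FPKM in WT and 49826 to 55095 FPKM in Hemgn-/- libraries, with 5 genes lower. Erythroid markers fell in 5 of 7 genes tested, from a sum of 453 to 543 FPKM to one of 25.7 to 41.3 FPKM. Of the genes that fell, Hba-a2 and Hbb-bt passed the filter through WT libraries alone. Hba-a2 alone was at 0, in 2 Hemgn-/- libraries. Of 6 eosinophil and basophil markers Epx and Prg2 fell. The others, Mcpt8, Prss34, Ms4a2 and Fcer1a, were not called, with log2 fold changes of -0.10, 0.059, 0.45 and 0.33. None of 5 endothelial markers tested was called by limma. In the HSPC list Cd34 rose 1.41-fold (adjusted p = 0.0427 in limma). No marker was at 0 in all libraries. Some markers rose and others fell between the same groups in which most Gbp and IRG genes rose. The part of these marker differences in the Gbp result was not tested.

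Outside the family, the 5 genes whose level followed the mean standardised level of the 8 Gbp genes most closely, among 6286 genes with a mean of at least 5 FPKM, were Ifi204, Shisa5, Irgm1, H2-T23 and Med1. Pearson's r over the 6 libraries was 0.998 for Ifi204, a DNA-sensing protein of the PYHIN family, and 0.995 to 0.998 over the 5 genes. The points are 2 groups of 3 libraries, so r follows the difference between groups as well as the spread within them, and it is given as a description. Ifi204 was at 14.6, 13.0 and 14.8 FPKM in WT and at 22.8, 28.1 and 27.1 FPKM in Hemgn-/- libraries. Of these genes Med1, a Mediator subunit, was not called (1.26-fold, adjusted p = 0.126 in limma).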

How the data were processed

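RNA-seq values of 6 libraries (3 WT and 3 Hemgn-/-) were used. The authors deposited 1 FPKM column per library, and the values fit whole fragments divided by gene length and library total. The submitters' processing notes name Bowtie2 2.2.3, HISAT2 2.1.0, TopHat2, HTSeq 0.6.0 and the build GRCm38, without roles. No column was left unmapped (0 columns). The columns of Hemgn-/- libraries are named K, and were matched to titles through genotype and replicate number. GENCODE M21 gave symbols and exon lengths for 24921 of 24965 identifiers, and 44 did not match. Whole fragments were recovered from the FPKM steps: of 13486 genes whose fragments never exceeded 100, 96.0% were whole within 0.1 in all 6 libraries. Fragments of amplified cDNA are not independent molecules.

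Values were taken as log2(FPKM + 1), which understates changes of low genes. Genes that exceeded 1 FPKM in any library were fitted with limma 3.58.1 in R 4.3.3 (lmFit, eBayes with a trend), without covariates. The 95% confidence intervals rest on the spread between libraries. P-values were two-sided and adjusted by Benjamini-Hochberg over all 13739 genes tested. No test was made over a list. The step was tested on simulated data. Pairing by replicate number was checked, and replicates differed by more than sampling noise (chi-square per gene 17.5 to 35.2).

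The members, the gene lists and the tests were chosen with earlier results of these data known. Named genes were the 8 members, Hemgn, all genes of lists of 8 or fewer, up to 3 genes called in each direction with the largest log2 fold change from longer lists, and the 5 genes most like the family. Some genes of these lists are not reported here by name, although they entered the fit and the counts. Other markers named were chosen after their values were seen. Alternatives were a pseudocount of 0.1, no filter, a mean FPKM of at least 1, a replicate block, voom on recovered fragments, eBayes with no trend, quantile and median-ratio normalization, equal FPKM totals, and leaving out each library. Upstream sequences were those of RefSeq. Python 3.11.15, pandas 2.3.3, Biopython 1.88 and matplotlib 3.10.9 were used for the other steps.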

Additional observations from a re-analysis of the deposited data

How the results depend on the processing

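Gbp2, Gbp4 and Gbp7 were called in all 15 alternatives, and every member's log2 fold change stayed above 0. Without a trend in eBayes, 3 members were called, Gbp3 (0.69) and Gbp9 (0.50) being lost. Leaving out each library gave 3 to 5 called members, with values of 0.63 to 0.80 for Gbp3 and 0.43 to 0.53 for Gbp9. Gbp8 was called at 0.58 after rescaling to the same FPKM total. With voom, 7 members passed the study's thresholds instead of 4. Gbp5 and Gbp6 were among them, with adjusted p-values of 0.143 and 0.197 in limma's voom. The share of all genes passing these thresholds with voom was not computed. The members' median log2 fold change was 0.72 with a pseudocount of 0.1, 0.55 with median-ratio scaling and 0.74 with voom. The ratio of summed FPKM was 1.65 with median-ratio scaling and 1.88 after rescaling, and on chromosome 5 it was 1.43 and 1.63. Related genes called higher numbered 26 after rescaling, 10 without a trend and 9 to 17 with a library left out, 9 of them without Hemgn-/- replicate 3. Those called lower numbered 2 with a pseudocount of 0.1 or voom, 0 without a filter or a trend, and 0 to 1 with a library left out, being 0 without Hemgn-/- replicate 1, Hemgn-/- replicate 3 or WT replicate 1. The cause was not tested. Sign reversed only for small, uncalled values. With median-ratio scaling these were Ifnar2 (-0.0045) and Fntb (-8.1e-05), with quantile normalization Fntb (-0.0024), and after rescaling Traf6 (0.071) and Tax1bp1 (0.023). Leaving out each library took Ifnar2 from -0.023 to 0.19, Fntb from -0.037 to 0.18, Traf6 from -0.072 to 0.087, Pycard from -0.27 to 0.019 and Il18 from -0.074 to 0.21. Genes called over the whole table numbered 600 higher and 287 lower, and 1059 and 238 after rescaling to the same FPKM total. They numbered 309 and 157 without a filter, 237 and 153 without a trend, and 223 and 150 without Hemgn-/- replicate 3. Same-numbered libraries did not deviate together (correlations of -0.043, -0.0094 and 0.011, beside -0.029 to 0.036 for differently numbered ones). With 3 libraries per group this cannot show whether the numbers pair them. With the replicate number as a block, 410 genes were higher and 226 lower, and the same 5 members were called, Gbp9 with an adjusted p of 0.0417 in limma. Gbp5, Gbp6 and Gbp8 had at most 411 fragments in any library, and Gbp5 ranged from 146 to 411 fragments within Hemgn-/-.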

Other observations

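Gbp5, Gbp6 and Gbp10 had the same highest library in each group. In each gene, WT replicate 3 was the highest WT library, at 0.924, 1.05 and 1.19 FPKM, and Hemgn-/- replicate 2 was the highest of its group, at 2.37, 1.59 and 2.38 FPKM, with Hemgn-/- replicate 1 the lowest. Gbp6 and Gbp10 share sequence, with 98.4% identity between their coding sequences, whereas Gbp5 lies on the other chromosome and shares 65.2% with Gbp6. In Gbp2, Gbp3 and Gbp8 too, Hemgn-/- replicate 2 was the highest and replicate 1 the lowest of the group, while WT replicate 3 was not the highest WT library in these genes, in Gbp7 or in Gbp9. This was noticed after the values were seen and is given as values.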
